A study of Mus musculus with 4 samples.

Results

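The 10 genes of natural killer (NK) cell surface receptors described here were followed through 4 single-cell libraries of mouse tumours: Klra4, Klra7, Klra8, Klra9, Klrb1c, Klrd1, Klrk1, Klre1, Klri2 and Ncr1. They were chosen by symbol, and all 10 were found among the 31053 genes of the count tables. The mice were wild-type animals of the strain written C57/bl6, and carried TC-1 tumours grown from 300000 injected cells of a mouse lung epithelial tumour line. When a tumour reached 40 mm², the mouse received PBS or a single dose of cisplatin, a DNA-crosslinking drug, at 6 mg/kg. There was 1 library for PBS and 1 for each of 3 times after cisplatin, 1, 3 and 7 days. The sources used here give no day for the PBS library and no number of mice behind any library, and another label of the PBS library reads as no treatment.

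The sort for innate lymphoid cells took leukocytes (CD45+) without lineage markers that were positive for CD90 and CD127. The 4 libraries held 21686 kept cells, between 2705 and 7425 each, with medians of 5039 to 8769 UMIs (unique molecular identifiers, each standing for 1 captured transcript) per cell. Most of them did not carry lymphoid markers: between 52.2% and 77.3% of the kept cells of a library fell in a myeloid gate, defined by more than 2% of UMIs from 12 macrophage and monocyte genes such as Lyz2, C1qa and Csf1r. Pairs of libraries shared between 4 and 32 cell barcodes. NK cells were gated by at least 4 UMIs from 2 or more of 9 genes (Nkg7, Gzma, Prf1, Eomes, Il2rb, Txk, Ctsw, Tbx21, Xcl1), with at most 1 UMI of the T cell genes Cd3d, Cd3e, Cd3g and Trac. T cells were gated by at least 3 UMIs from 2 or more of those 4 genes. None of the 10 receptors was used in any gate, so their levels in the gates were free to differ.

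NK cells decide whether to kill a target by adding up signals from activating and inhibitory receptors. Many of these receptors are lectin-like proteins encoded side by side in the NK gene complex. The mouse Ly49 receptors (Klra genes) bind class I major histocompatibility molecules or related proteins. Among them, Klra4 (Ly49D) and Klra8 (Ly49H) are activating and signal through the adaptor DAP12, whereas Klra7 (Ly49G) and Klra9 (Ly49I) are inhibitory. Individual NK cells switch on different subsets of the Ly49 genes. Klrk1 encodes NKG2D, an activating receptor for stress-induced ligands, which is also found on CD8 T cells and some gamma-delta T cells. Klrd1 encodes CD94, the partner of the NKG2 receptors that bind Qa-1. Klrb1c encodes NK1.1, the antigen used to recognise NK cells in C57BL/6 mice, and Ncr1 encodes NKp46. Klre1 and Klri2 encode lectin-like receptors that pair with each other.

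Of the 10 genes, 9 lie on chromosome 6 and Ncr1 lies on chromosome 7 (mm10, GENCODE vM21). In order along chromosome 6 they are Klrb1c at chr6:128778485-128789215, Klre1 at chr6:129577905-129585827, Klrd1 at chr6:129591782-129598775, Klrk1 at chr6:129610323-129623864 and Klri2 at chr6:129729041-129740484. The 4 Ly49 genes follow, Klra4 at chr6:130043731-130067271, Klra8 at chr6:130115226-130129898, Klra9 at chr6:130178675-130193112 and Klra7 at chr6:130218605-130233322. Ncr1 occupies chr7:4337724-4345164. The 4 Ly49 genes and Klrb1c, Klrk1 and Klri2 are read from the minus strand, and Klre1, Klrd1 and Ncr1 from the plus strand.

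The bases just upstream of the 4 Ly49 start sites are shown because the 4 genes are close relatives, yet Klra4 transcripts were also found in barcodes where the other 3 were nearly missing. Each line holds the 100 bases directly before the RefSeq start (GRCm38.p6, minus strand, 5′ to 3′). Capitals mark the longest stretch that the 4 windows of 250 upstream bases share, TTTCCTCTTTT.
Klra4, chr6:130067272-130067371: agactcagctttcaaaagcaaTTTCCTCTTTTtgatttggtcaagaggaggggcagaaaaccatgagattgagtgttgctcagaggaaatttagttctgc
Klra7, chr6:130233323-130233422: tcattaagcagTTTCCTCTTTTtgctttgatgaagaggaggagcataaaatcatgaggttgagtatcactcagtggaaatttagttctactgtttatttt
Klra8, chr6:130129899-130129998: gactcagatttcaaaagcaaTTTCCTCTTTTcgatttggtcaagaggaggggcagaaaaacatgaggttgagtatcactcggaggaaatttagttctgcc
Klra9, chr6:130193113-130193212: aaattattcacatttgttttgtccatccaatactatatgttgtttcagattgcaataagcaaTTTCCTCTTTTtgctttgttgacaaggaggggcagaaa
This stretch of 11 bases, searched on both strands, was present in 42 of 32851 upstream windows of that length (0.128%), among them those of Klra2, Klra3, Klra6 and Klra17. The aligned windows of Klra4 and Klra8 were 85.1% identical, and the other pairs between 78.9% and 82.8%. These percentages count aligned bases only and leave out gaps. Klra4 and Klra8 aligned over 249 bases with 2 gap positions. The pairs with Klra9 aligned over only 174 to 185 bases, with 130 to 152 gap positions. Klra7 aligned with Klra4 and Klra8 over 238 and 239 bases, with 24 and 22 gap positions. Along the longest transcripts, counted in the same way, the closest pair was Klra8 and Klra9 (90.6%).

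A different short motif was seen upstream of the other members with a RefSeq window. The letters TGTGGT or ACCACA, the core bound by RUNX factors, were present in the 250 upstream bases of Klrb1c, Klrk1 and Ncr1, in 1 of 2 windows of Klre1, and in no window of the 4 Ly49 genes. They were also present in 4614 of 32851 windows (14.0%), and the difference between these members and the Ly49 genes was not tested. For 3 of these genes the 60 bases around the motif are given, with the core in capitals. The Klre1 match lies in an annotated exon and is not shown. The Klrb1c stretch ends 49 bases before the RefSeq start but lies inside the longer gene span of GENCODE given above.
Klrb1c, chr6:128788691-128788750, minus strand: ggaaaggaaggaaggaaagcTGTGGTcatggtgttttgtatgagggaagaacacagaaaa
Klrk1, chr6:129623954-129624013, minus strand: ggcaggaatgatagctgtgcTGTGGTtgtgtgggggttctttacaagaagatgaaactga
Ncr1, chr7:4337654-4337713, plus strand: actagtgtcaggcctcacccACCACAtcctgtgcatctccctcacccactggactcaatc
The T-box core TCACACC, searched on both strands, was found in no member's window and in 3.33% of all windows. Such matches describe letters only. Klrd1 and Klri2 had no entry among the windows.

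Because the reads came from the 3' ends of transcripts, the last 500 bases of each transcript were compared with the full length of the transcripts of all other genes for shared stretches as long as a 75-base read. For 7 members, among them Klra4 and Klra8, no stretch was shared. Of the windows of Klra9, 155 of 654 (23.7%) were found in another gene, including Klra3, Klra8 and Klra10. For Klra7 the count was 72 of 654 (11%), all with the pseudogene Klra13-ps, and for Klrb1c 233 of 1704 (13.7%), with Klrb1a, Klrb1b and the overlapping Gm44511. The levels of Klra9, Klra7 and Klrb1c are therefore less certain than the others.

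Over all kept cells, transcripts of the 10 receptors were scarce in the PBS library and more abundant in each cisplatin library. Their summed level, in UMIs per 1000000 UMIs (CPM), was 23.4 in PBS, 75.2 on day 1, 181 on day 3 and 155 on day 7. Each group is 1 library, so no test of treatment or time was possible; the intervals given below are exact 95% intervals of counting error only. Relative to PBS the sum was 3.22-fold higher on day 1 (3.02 to 3.43), 7.73-fold on day 3 (7.26 to 8.23) and 6.63-fold on day 7 (6.19 to 7.12). All 10 genes were at least 1.5-fold above PBS in each of the 3 libraries, where 19.9%, 20.2% and 22.0% of all genes with 20 or more UMIs were that much higher on days 1, 3 and 7. None of the 10 was that much lower, against 4.55%, 17.2% and 14.2% of all genes. The median log2 ratio of the 10 genes was 1.51, 2.72 and 2.83, against 0.14, -0.04 and 0.02 over all genes. The 3 comparisons share the PBS library.

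The genes did not peak in the same library. Klrk1 (NKG2D) measured 6.99, 26.0, 77 and 35.3 CPM in PBS and on days 1, 3 and 7, and Klrd1 (CD94) 3.88, 17.9, 37.4 and 31.2 CPM. Both were highest on day 3, as were Klre1 (2.82, 7.54, 17.5 and 15.4 CPM) and, by a small margin, Klra7 (1.22, 3.67, 14.4 and 14.0 CPM). The activating Ly49 genes were highest on day 7. Klra8 stood at 0.807, 2.03, 2.83 and 11.5 CPM, and Klra4 at 3.58, 7.11, 8.50 and 18.2 CPM. Klra9, Klrb1c, Klri2 and Ncr1 were also highest on day 7, between 5.97 and 8.64 CPM.

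The number of NK-gated cells also differed between libraries. The NK gate held 73 of the PBS cells, or 0.983% (exact Clopper-Pearson interval 0.771% to 1.23%), 100 cells or 1.46% on day 1 (1.19% to 1.78%), 126 cells or 2.67% on day 3 (2.23% to 3.17%) and 81 cells or 2.99% on day 7 (2.38% to 3.71%). The intervals of days 3 and 7 overlapped each other and lay above that of PBS. The sort, which selects for CD127 and CD90, can itself set these shares. T cells made up 2.07%, 6.23%, 13.1% and 3.92% of the kept cells. In the NK gate the 9 gating genes summed to 6856, 5436, 10047 and 10583 CPM. The T genes were at 12.8 to 40.9 CPM and the myeloid genes at 6514 to 9629 CPM. No step of the gate separates NK cells from type 1 innate lymphoid cells (ILC1), so NK-gated cells may include them. The 4 ILC1 genes checked (Itga1, Tmem173, Il7r, Cd200r1) summed to 133, 186, 135 and 117 CPM there, and to 379 to 1033 CPM in the T gate. Itga1 alone stood at 23.2 to 44.6 CPM in the NK gate and at 2.27 to 14.8 CPM in the T gate. The 4 mast cell genes tested (Mcpt4, Cma1, Cpa3, Tpsb2) summed to 1361 CPM in the day 1 NK gate and to 5.80 to 42.8 CPM in the other libraries. On day 1 they came with 3 barcodes of 10 or more mast cell UMIs, and without these the counts of receptors past 1.5-fold were the same.

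**Figure D1:**
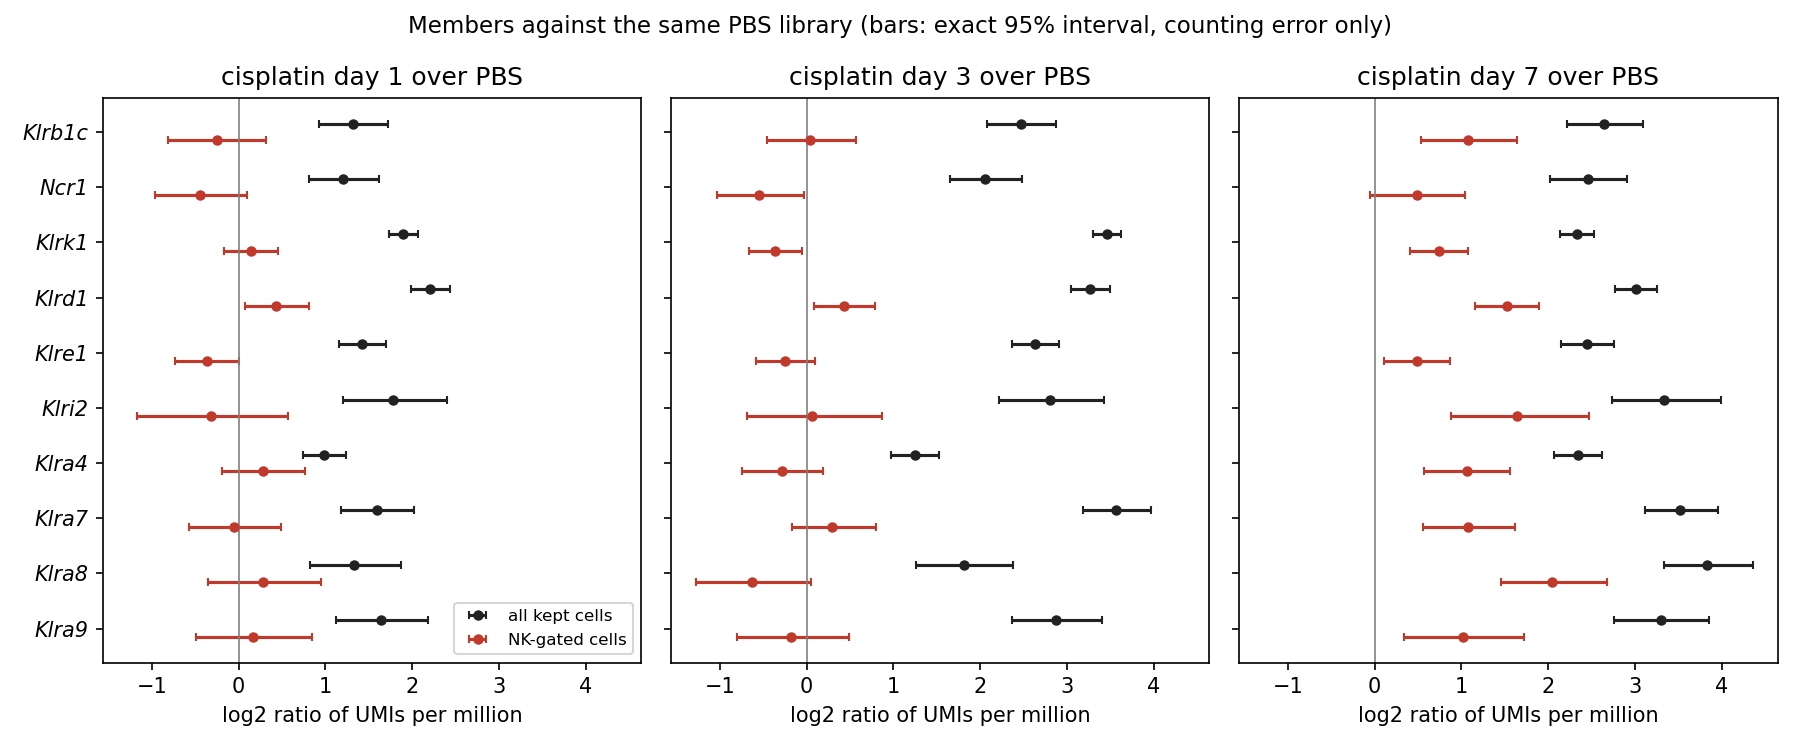
Log2 ratio of each receptor's level in the day 1, day 3 and day 7 library to PBS (x axis), over all kept cells (black) and within NK-gated cells (red), with exact 95% counting intervals and 1 library per group. All 10 black points lie above 0 on each day, whereas the red points lie around 0 on days 1 and 3 and above 0 on day 7.

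Within NK-gated cells the receptors stood close to their PBS level on days 1 and 3, and above it on day 7. The sum of the 10 genes was 2421, 2487, 2249 and 5020 CPM in PBS and on days 1, 3 and 7, which is 1.03-fold of PBS on day 1 (0.930 to 1.14), 0.929-fold on day 3 (0.845 to 1.02) and 2.07-fold on day 7 (1.88 to 2.29). At 1.5-fold, 0 receptors were higher and 0 lower on day 1, against 24.5% and 9.81% of all genes. On day 3, 0 were higher and Klra8 alone was lower, against 27.8% and 11.4%. On day 7, 8 of 10 were higher and 0 lower, against 28.4% and 16.1%; Klre1 and Ncr1 were the 2 below the limit. The median log2 ratio of the receptors was 0.04, -0.22 and 1.07 on the 3 days, beside 0.14, 0.17 and 0.18 for all genes. The position of the gate moved the day 1 result: with 2 UMIs of the NK genes in place of 4, 7 receptors were at least 1.5-fold lower, with no limit on myeloid UMIs 6 were lower, and with a limit of 1% 3 were higher. On day 7 the count stayed between 7 and 10 under the same settings.

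A single barcode weighed on the PBS level. Fst, Tm4sf1, Hmga2 and Crabp1, genes of a group of ungated barcodes described further on, summed to 646 CPM in the PBS NK gate and to at most 52.4 CPM in the other 3 libraries. In the gate, 1 PBS barcode and 1 day 3 barcode held 5 or more of these UMIs. Without them the sum of the receptors in PBS was 2795 CPM in place of 2421, and the log2 ratio of the sum was -0.17 on day 1, -0.31 on day 3 and 0.84 on day 7. At 1.5-fold, 1 receptor was then lower on day 1, 2 were lower on day 3, and 7 of 10 were higher on day 7. This setting was added after the values were seen, and it removed such barcodes from the NK gate only.

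The activating Ly49 gene Klra8 showed the widest spread between libraries. Its level in NK-gated cells was 124 CPM in PBS, 151 on day 1, 80.0 on day 3 and 512 on day 7, from 29, 81, 69 and 127 UMIs. The log2 ratio to PBS was 2.04 on day 7 (1.45 to 2.68), and ranged from 1.83 to 2.41 over 11 other settings. On day 3 it was -0.63 (-1.28 to 0.05), an interval that includes 0. A Klra8 UMI was seen in 17.8%, 22.0%, 20.6% and 37.0% of the NK-gated cells, so the day 7 library also had more cells with the transcript. Among the 10 genes the rank of Klra8 by UMIs was 8 in PBS, 7 on day 1, 10 on day 3 and 4 on day 7.

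The other Ly49 genes were about 2-fold above PBS on day 7. Klra4 (Ly49D) measured 222, 270, 182 and 463 CPM, with a log2 ratio of 1.06 on day 7 (0.57 to 1.56). The inhibitory genes had similar ratios. Klra7 (Ly49G) measured 192, 186, 237 and 407 CPM (1.08 on day 7, 0.56 to 1.62), and Klra9 (Ly49I) 120, 134, 106 and 242 CPM (1.01, 0.34 to 1.72). The day 1 and day 3 intervals of these 3 genes all included 0.

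Klrd1 (CD94) was the most abundant receptor in the day 3 and day 7 NK cells. It measured 355, 480, 478 and 1019 CPM, and the log2 ratio was 0.43 on day 1 (0.07 to 0.81) and 1.52 on day 7 (1.16 to 1.90). With the 2-UMI gate the day 1 value became -0.31, and with no myeloid limit -0.16. Klrk1 (NKG2D) led in the other 2 libraries and measured 522, 575, 406 and 870 CPM. Its log2 ratio was -0.36 on day 3 (-0.66 to -0.05) and 0.74 on day 7 (0.41 to 1.07), so in NK cells Klrk1 was lower on day 3, the library in which its level over all cells was highest.

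The paired lectins Klre1 and Klri2 differed from each other. Klre1 measured 415, 322, 348 and 580 CPM, only 1.40-fold above PBS on day 7 (1.07 to 1.83). Klri2, the least abundant receptor in PBS and on day 1, measured 81.3, 65.1, 84.7 and 254 CPM, 3.12-fold above PBS on day 7 (1.85 to 5.53). The difference between these 2 ratios was not tested. Of the NK-defining antigens, Klrb1c (NK1.1) measured 180, 151, 184 and 379 CPM with a day 7 log2 ratio of 1.08 (0.54 to 1.64), and Ncr1 (NKp46) 210, 154, 144 and 294 CPM with 0.49 (-0.05 to 1.04). On day 3 the interval for Ncr1 lay below 0, at -0.54 (-1.03 to -0.04).

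**Figure D2:**
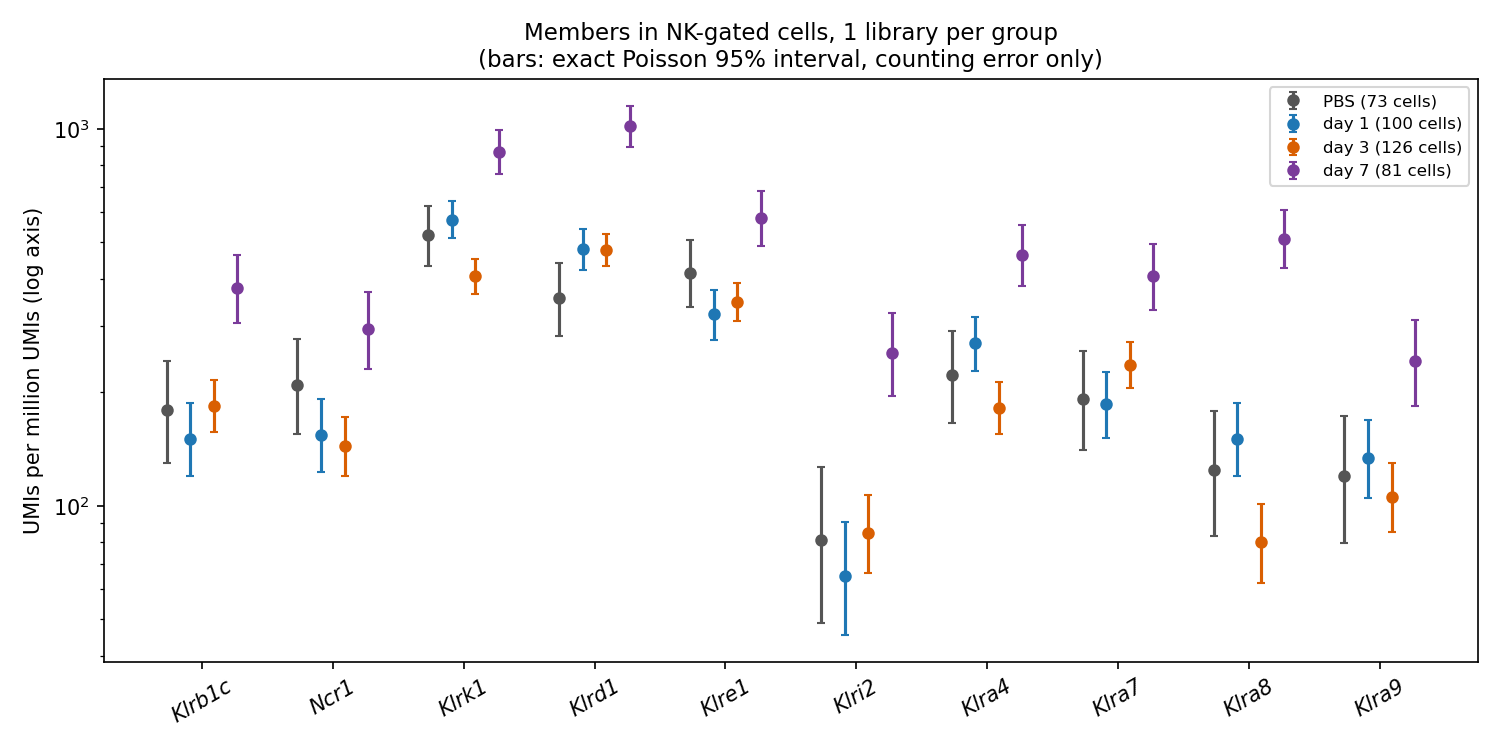
Level of each of the 10 receptors in NK-gated cells in PBS and on days 1, 3 and 7, in CPM on a log axis with exact 95% Poisson bars, from 73, 100, 126 and 81 cells. The day 7 point is the highest for each gene, and the Klra8 points run from 80.0 CPM on day 3 to 512 CPM on day 7.

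In all 4 libraries the same 3 receptors, Klrk1, Klrd1 and Klre1, gave the most UMIs in NK-gated cells, while the order of the other 7 changed between libraries. UMIs are counted at 1 end of a transcript and were not divided by length, so this is an order of captured transcripts. In cells thinned to 2000 UMIs, which left 309 of the 380 NK-gated cells, Klrk1 was seen in 61.2%, Klrd1 in 58.6% and Klre1 in 48.2%. Klrb1c followed with 35.6%, Ncr1 with 28.5%, Klra7 with 26.2%, Klra4 with 24.3%, Klri2 with 19.7%, Klra8 with 19.4% and Klra9 with 18.1%. In myeloid-gated cells thinned alike, the share was 1.82% for Klrk1 and 0.00723% to 0.318% for the other 9. At least 1 of the 10 receptors was seen in 284 of 309 thinned NK-gated cells (91.9%), in 333 of 1110 T-gated cells (30%) and in 357 of 13827 myeloid-gated cells (2.58%). Without thinning the shares were 94.5%, 37.1% and 7.73%.

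NK-gated cells differed in how many Ly49 genes were seen in them. No UMI of the 4 genes was found in 30 of 73 NK-gated cells in PBS, 46 of 100 on day 1, 51 of 126 on day 3 and 27 of 81 on day 7. Exactly 1 of the 4 was found in 24, 16, 32 and 20 cells, and exactly 2 in 13, 23, 33 and 19. All 4 were found together in 0, 3, 2 and 3 cells. The 6 pairs of these genes were each seen together in 3 to 7 cells in PBS, 9 to 16 on day 1, 5 to 21 on day 3 and 6 to 20 on day 7; association between them was not tested. A cell with no UMI may still express the gene, since the median depth of NK-gated cells was 2294, 4103, 5447 and 2639 UMIs. The median number of the 10 receptors seen per NK-gated cell was 4, 4, 5 and 5, and 5 or more were seen in 39.7%, 43.0%, 57.1% and 59.3% of cells. The day 7 library reached the last of these shares at less than the depth of days 1 and 3.

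The gates could be tested against each other, since each library gave a sum for every gate. edgeR's quasi-likelihood test was used on these sums with the library as a block, and p-values were adjusted by the Benjamini-Hochberg method over all genes tested. All 10 receptors were higher in NK-gated than in T-gated cells in each of the 4 libraries, and all 10 passed the test at an adjusted p under 0.05, where 3.74% of 9218 genes were called higher in NK cells and 4.07% lower. The largest log2 differences were those of Klra8, 7.50 (SE 0.37, adjusted p = 4.7e-09), Klra4, 5.41 (SE 0.26, adjusted p = 4.5e-09) and Ncr1, 5.09 (SE 0.38, adjusted p = 4.4e-07). In the T gate Klra8 had only 0, 4, 1 and 0 UMIs in the 4 libraries. Klrb1c differed by 4.45, Klri2 by 4.20, Klre1 by 3.85, Klra9 by 3.51 and Klra7 by 2.91. The smallest differences belonged to the 2 receptors known on T cells. Klrd1 differed by 2.59 (SE 0.24, adjusted p = 4.9e-06) and Klrk1 by 2.34 (SE 0.50, adjusted p = 0.0081). The call for Klrk1 was lost without the day 1 library (adjusted p = 0.056), without the day 7 library (adjusted p = 0.058), with the 2-UMI gate (adjusted p = 0.066) and without the library block (adjusted p = 0.15).

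Myeloid cells served as a gate that should lack these receptors. All 10 were higher in NK-gated than in myeloid-gated cells in the edgeR test (20% of genes were called higher and 21.3% lower), by log2 6.12 for Klrk1 to 9.54 for Klra8. T-gated cells were also above myeloid cells for 9 of 10 receptors (24.3% called higher, 25.2% lower), by 2.95 for Klra4 to 6.39 for Klra7. The exception was Klra8, at 2.04 (SE 0.84, adjusted p = 0.056), whose call was gained when the day 7 library was left out (adjusted p = 0.023). It was also gained with DESeq2 (adjusted p = 0.014), with a myeloid limit of 1% (adjusted p = 0.018) or none (adjusted p = 0.015), and with a myeloid gate free of NK and T marker UMIs (adjusted p = 0.048). The call of Klra4 rests on 1, 24, 15 and 0 UMIs in the T gate of PBS and days 1, 3 and 7.

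**Figure D3:**
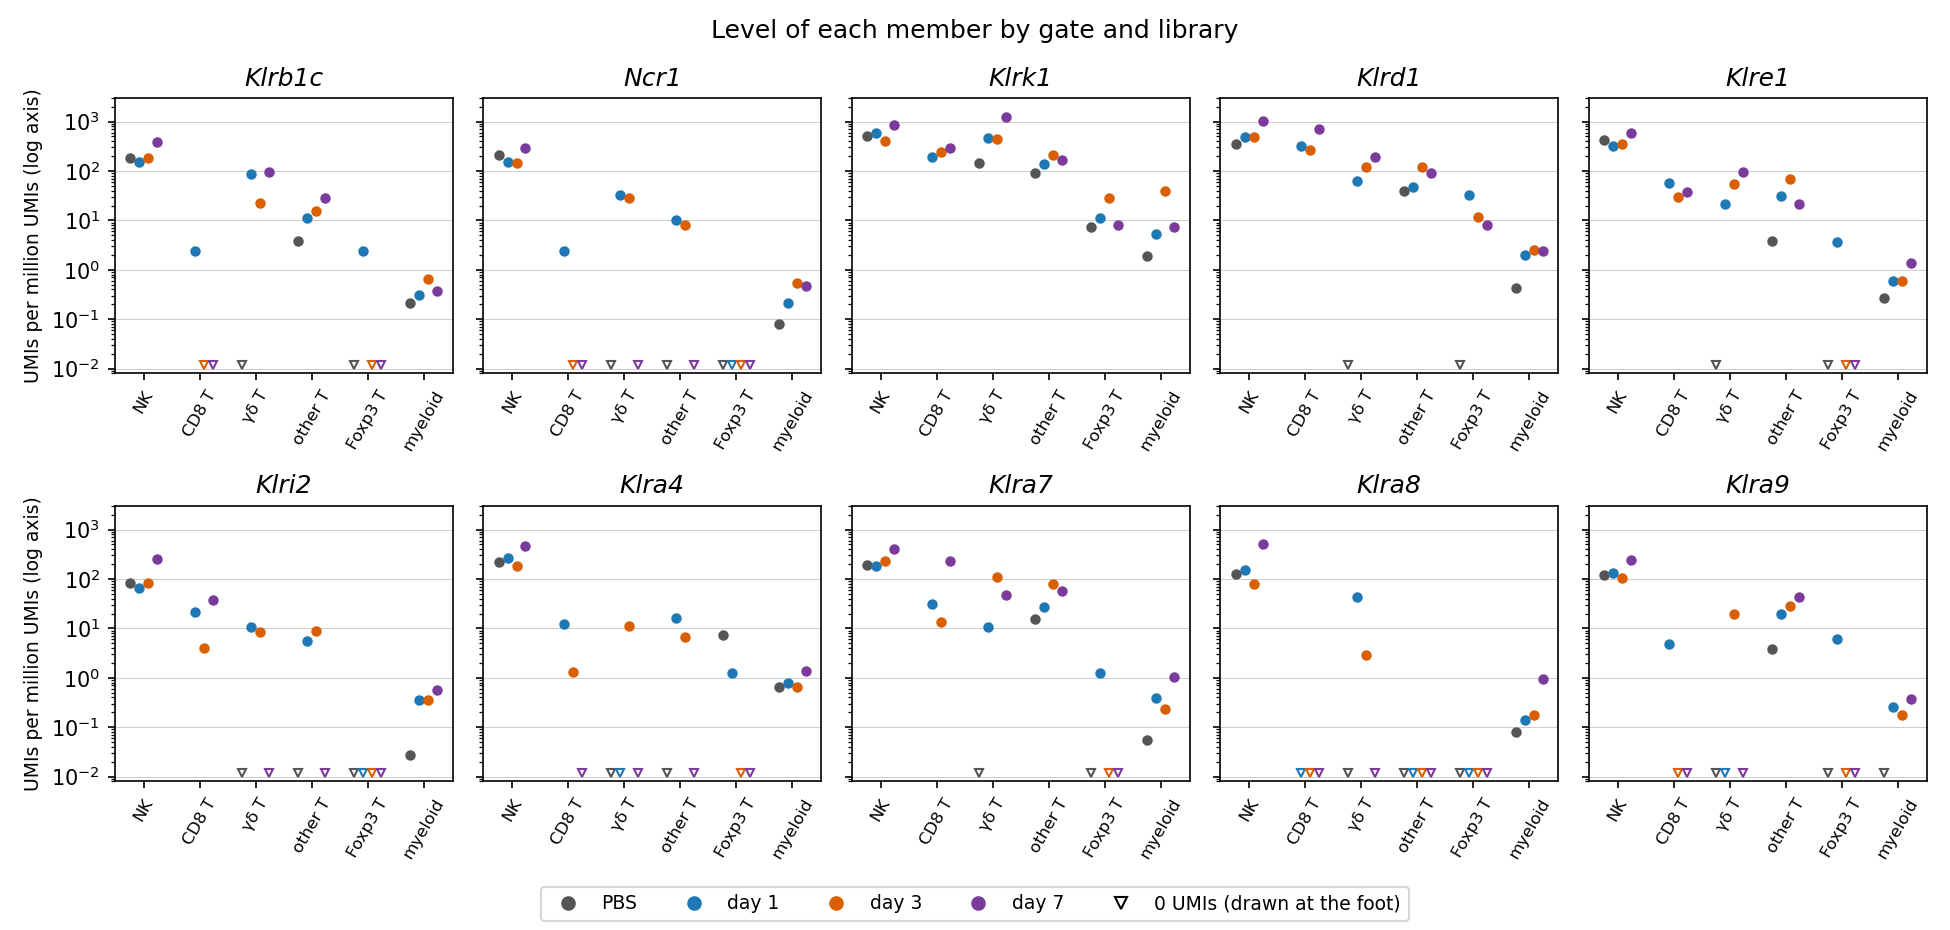
Level of each receptor, 1 panel per gene, in NK, CD8 T, gamma-delta T, other T, Foxp3 T and myeloid gates, in CPM on a log axis, with 1 colour per library and open triangles at the foot for 0 UMIs. The CD8 sum of PBS, which is 1 cell, is left out; among T cell subsets Klrd1 comes closest to the NK level in CD8 T cells, Klrk1 in gamma-delta T cells exceeds it on days 3 and 7, and Klra8 has no UMI in CD8 or Foxp3 T cells.

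The T gate was divided into subsets by further markers. CD8 T cells (1, 48, 89 and 15 cells in PBS and on days 1, 3 and 7) were the nearest to NK cells for Klrd1, with 326, 268 and 705 CPM on days 1, 3 and 7 and 2 UMIs in the single PBS cell. The log2 difference of NK minus CD8 was 0.83 (SE 0.27, edgeR adjusted p = 0.097) and missed the threshold, which does not show that the levels were alike. It passed with doublets kept (adjusted p = 0.022), with all deposited barcodes (adjusted p = 0.026), with a gate of 8 UMIs (adjusted p = 0.044) and with no filter on low counts (adjusted p = 0.012). The other 9 receptors were higher in NK than in CD8 T cells by edgeR, where 1.78% of 5998 genes were called higher and 1.25% lower. Klra8 had 0 UMIs in 153 CD8 T cells, and its floor of 3 counts stood at 7.29 CPM on day 1 and 4.003 on day 3, against 151 and 80.0 CPM in NK cells. Klrk1, at 190, 243 and 286 CPM in CD8 T cells on days 1, 3 and 7, differed by 1.86 (SE 0.45, adjusted p = 0.011). That call was lost with DESeq2 (adjusted p = 0.072), with sums of at least 10 cells (adjusted p = 0.057), with no myeloid limit (adjusted p = 0.084), with the 2-UMI gate (adjusted p = 0.25) and without the block (adjusted p = 0.70). Klra9 lost its call with DESeq2 (adjusted p = 0.071) and Klra7 without the block (adjusted p = 0.071).

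Regulatory T cells, gated by Foxp3, were nearly free of the receptors. Their 10 genes summed to 14.5, 58.8, 39.5 and 16.3 CPM in the 4 libraries. Compared with them, 5 receptors were higher in CD8 T cells (7.04% of genes called higher, 6.49% lower). These were Klrd1 by log2 4.21 (SE 0.37, edgeR adjusted p = 2.3e-11), Klrk1 by 3.85 (SE 0.62, adjusted p = 1.2e-05), Klre1 by 4.64, Klra7 by 5.82 and Klri2, which had 0 UMIs in Foxp3 T cells. Klri2 lost its call without the day 1 library (adjusted p = 0.094).

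Gamma-delta T cells (8, 25, 76 and 9 cells) were T-gated cells with at least 2 UMIs of Trdc, which encodes a chain of the gamma-delta antigen receptor. Trdc also stood at 34.2, 40.9, 63.8 and 105 CPM in the NK gate, beside 109, 65.2, 215 and 160 CPM in the T gate. The marker was thus not particular to T-gated cells. This subset held the highest Klrk1 level of the T cell subsets in each library. Klrk1 stood at 144, 470, 439 and 1226 CPM, where the PBS value rests on 6 UMIs and the day 7 value on 26. On days 3 and 7 this was above the NK level of 406 and 870 CPM, and the difference between these gates was not tested. The log2 difference from Foxp3 T cells was 4.99 (SE 0.62, edgeR adjusted p = 9.3e-08). In all, 8 receptors were higher in gamma-delta than in Foxp3 T cells (3.57% of genes called higher, 5.75% lower), all but Klra4 and Klra9. The calls of Klra8 and Ncr1 rest on few molecules. Klra8 had 5 UMIs in the whole T gate, and Ncr1 was seen in 0, 1, 3 and 0 gamma-delta cells and in no Foxp3 T cell. Only 4 of the 8 passed without the day 3 library, which holds 76 of the 118 gamma-delta cells. Klrd1, Klre1, Klra7 and Klri2 were lost. Klri2, which passed narrowly (adjusted p = 0.044), was also lost without the day 1 library (adjusted p = 0.12), without the day 7 library (adjusted p = 0.055) and without the block (adjusted p = 0.20). The same gene was lost with all barcodes, the 2-UMI gate, an NK gate free of T cell UMIs, no myeloid limit and sums of at least 10 cells. Klra4 passed with a myeloid limit of 1% (adjusted p = 0.0074). Klra8 was lost without the day 1 library (adjusted p = 0.38) and without the block (adjusted p = 0.26), whereas Klra9 passed without the day 1 library (adjusted p = 0.017).

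Across libraries, the receptors in T-gated cells were higher on each day after cisplatin than in PBS. Their sum was 116, 298, 485 and 482 CPM. Klrk1 measured 70.2, 117, 210 and 195 CPM, Klrd1 27.2, 90.5, 135 and 163 CPM, and Klra7 9.06, 18.7, 51.7 and 62.1 CPM. Of the members with 20 or more UMIs, 7 of 7 were at least 1.5-fold above PBS on day 1 (21.4% of all genes), 6 of 7 on day 3 (20.5%) and 3 of 3 on day 7 (20.3%). None was that much lower, against 9.04%, 13.8% and 19.1% of all genes. The T gate of PBS held 154 cells and 51 UMIs of the receptors, and only 1 of its cells was a CD8 T cell, so the make-up of the gate differed between libraries. In PBS and on days 1, 3 and 7 Tm4sf1 stood at 6.80, 119, 4.70 and 11.8 CPM in the T gate. Fst stood at 6.80, 57.7, 1.88 and 5.91 CPM there, Hmga2 at 2.27, 18.7, 1.88 and 2.96, and Crabp1 at 11.3, 16.6, 2.19 and 26.6. Ungated barcodes rich in these genes also carried Klra4, which had 1, 24, 15 and 0 UMIs in the T gate. Whether such barcodes bear on Klra4 there was not tested. Klrk1 and Klrd1 were seen together in 1 of 154, 48 of 426, 105 of 617 and 9 of 106 T-gated cells. A Ly49 gene and Klrb1c were seen together in 0, 10, 11 and 2 of them.

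Klrk1 stood apart from the other receptors by its UMIs in myeloid-gated cells, above all on day 3. Klrk1 had 70, 225, 663 and 80 UMIs in the myeloid gate in PBS and on days 1, 3 and 7, or 1.89, 5.26, 39.0 and 7.48 CPM. The log2 ratio to PBS was 1.47 (1.08 to 1.88), 4.36 (4.01 to 4.74) and 1.98 (1.5 to 2.47), and the day 3 value lay between 3.49 and 4.49 under 8 other settings. Of the members with 20 UMIs in this gate, 3 of 5, 3 of 4 and 4 of 4 were at least 1.5-fold above PBS, against 13.4%, 15.7% and 13.3% of all genes, and none was that much lower, against 5.39%, 18.2% and 19.9%. Expressed as a percentage of the level in NK-gated cells of the same library, myeloid Klrk1 was 0.363%, 0.915%, 9.60% and 0.859%. For the other 9 receptors this percentage was at most 0.538%, and for the 9 NK gating genes, which the myeloid gate limits to 1 UMI per cell, at most 0.925%.

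The day 3 Klrk1 UMIs were spread over many myeloid cells. They lay in 430 of 2461 cells, of which 141 had 2 or more and the highest had 7. In cells thinned to 2000 UMIs the share with a Klrk1 UMI was 0.365%, 1.02%, 7.24% and 1.32%, and on day 3 its interval was 6.21% to 8.38%. The share with an Ncr1 UMI, a receptor of NK cells, was at most 0.132% in the same cells. The myeloid gate admits at most 1 UMI each of the NK and T sets, so barcodes rich in NK transcripts were left out beforehand. On day 3 the T gate held 671 Klrk1 UMIs and 22 Ncr1 UMIs, so Ncr1 says little about T cell transcripts. On day 3 the genes Ly6c2 (2.14, 5.77, 296 and 20.9 CPM) and Plac8 (3.27, 11.7, 178 and 24.1 CPM) and the interferon-induced gene Isg15 (98.0, 145, 1149 and 225 CPM) were highest in the myeloid gate too. Ly6c2 and Plac8 are read in monocytes, but on day 3 they also stood at 851 and 390 CPM in the T gate. In the NK gate of that day they stood at 261 and 463 CPM, so neither was particular to monocytes. Myeloid cells with 2 or more UMIs of Ly6c2 and Plac8 numbered 29, 113, 697 and 56, a split chosen after the values were seen. Klrk1 stood at 49.4, 23.5, 72.6 and 32.2 CPM in these cells and at 1.68, 4.77, 25.4 and 6.74 CPM in the others, higher in the first in each of the 4 libraries. The 29 PBS cells held only 10 UMIs of the 10 receptors together. Klra2 was likewise higher in the first, at 105, 67.8, 116 and 103 CPM against 22.4, 36.3, 95.3 and 34.3. Thy1, which encodes CD90, was also higher in the first, at 55.6, 22.6, 8.80 and 45.1 CPM against 3.78, 7.92, 5.77 and 3.95. So was Il7r, which encodes CD127, at 30.9, 137, 110 and 25.8 CPM against 14.2, 36.8, 55.2 and 9.15. In the whole myeloid gate Il7r stood at 14.3, 39.4, 70.9 and 9.63 CPM. Cd3e stood at 0, 0.904, 5.12 and 3.22 CPM against 0.543, 2.71, 2.97 and 0.963. Whether these genes bear on the Klrk1 level was not tested.

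**Figure D4:**
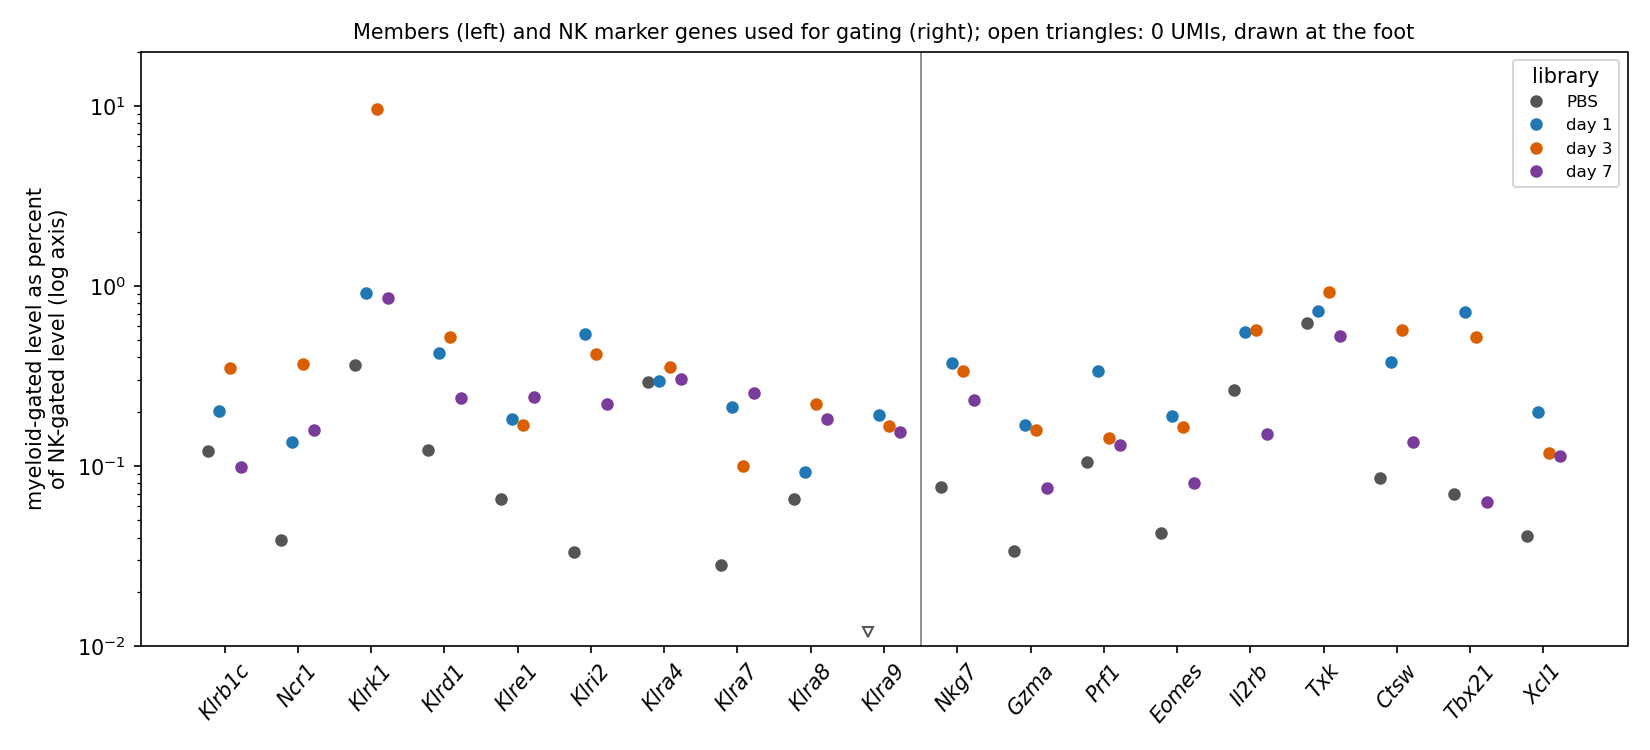
Level in myeloid-gated cells as a percentage of the level in NK-gated cells of the same library, on a log axis, for the 10 receptors (left) and the 9 NK gating genes (right), with 1 colour per library. Klrk1 on day 3 is at 9.60%, and every other point lies below 1%.

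Klra4 had a second location, in barcodes with few UMIs of the other Ly49 genes. Of its 1207 UMIs in kept cells, 469 (38.9%) lay in NK-gated cells and 492 (40.8%) in 258 barcodes outside the gates that carried 5 or more UMIs of Fst, Tm4sf1, Hmga2 and Crabp1. These 4 genes were picked after the values were seen, because they accompanied Klra4 in ungated barcodes of the PBS library, so the concentration there is a description. Klra4 measured 84.9, 99.6, 353 and 78.4 CPM in these barcodes, from 86, 218, 73 and 115 UMIs. The day 3 value rests on 8 barcodes, and 67 of its 73 UMIs lay in 1 of them. In all, 111 of the 258 barcodes had a Klra4 UMI. Which cells these barcodes hold was not tested.

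The relatives of Klra4 were nearly missing from the same barcodes. Klra7 had 1 UMI there, and Klra8 and Klra9 had 0. The other 9 receptors together had 17 UMIs among 4877333, of which Klrk1 gave 3. The NK gating genes summed to 4.93 to 24.2 CPM with Eomes at 0, and Ptprc, which encodes CD45, stood at 40.5, 34.3, 19.4 and 12.9 CPM. In the ungated barcodes without the 4 genes, Klra4 was at 0.350 to 4.80 CPM. The last 500 bases of Klra4 transcripts shared no 75-base stretch with another annotated gene.

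**Figure D5:**
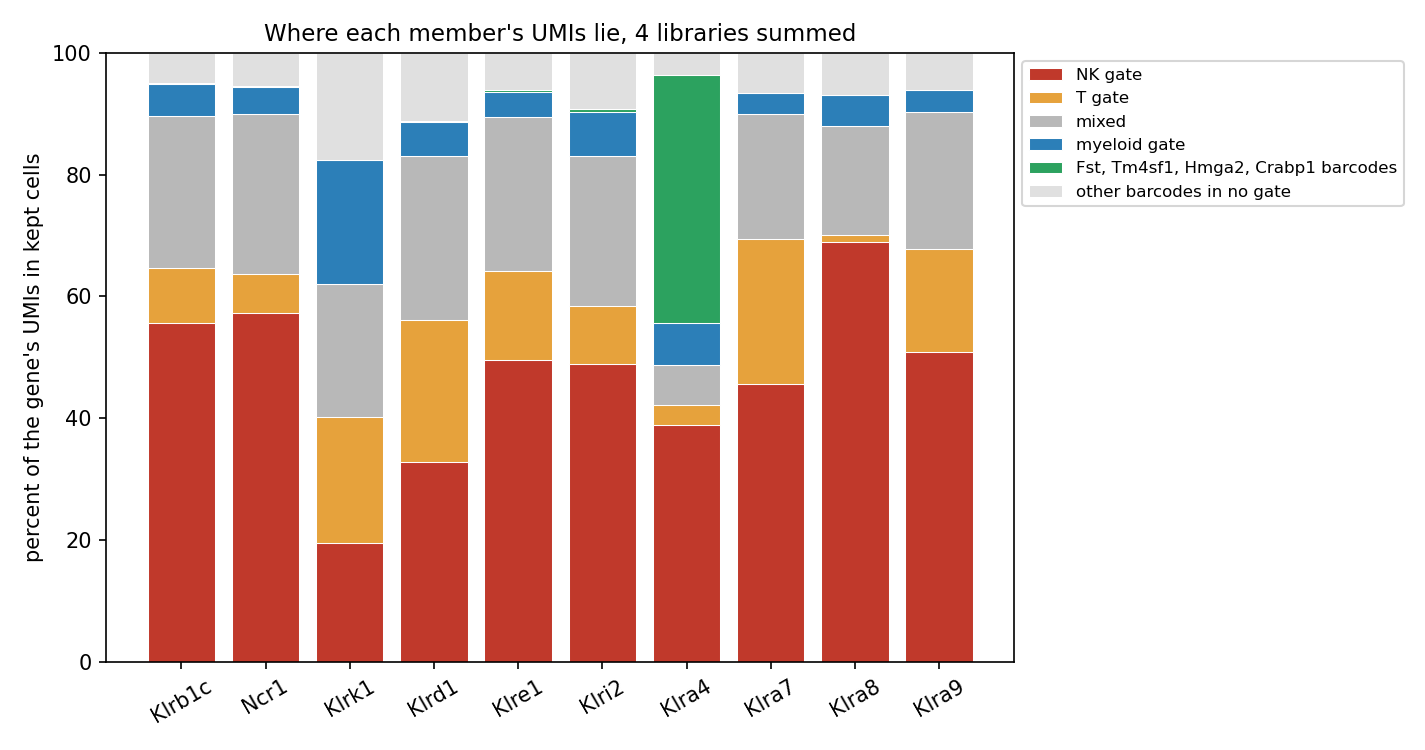
Percent of each receptor's UMIs (4 libraries summed) that lay in NK-gated, T-gated, mixed, myeloid-gated, Fst, Tm4sf1, Hmga2 and Crabp1 barcodes and other ungated cells. The NK share runs from 19.6% for Klrk1 to 68.9% for Klra8, and Klra4 has 40.8% in the Fst barcodes.

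For the remaining genes, the NK gate held 68.9% of the UMIs of Klra8, 57.3% of Ncr1, 55.6% of Klrb1c, 50.8% of Klra9, 49.5% of Klre1, 48.8% of Klri2, 45.6% of Klra7 and 32.8% of Klrd1. Klrk1 was spread the most evenly. Of its 5098 UMIs, 19.6% lay in the NK gate, 20.6% in the T gate, 20.4% in the myeloid gate, 21.9% in mixed barcodes that met a lymphoid gate with over 2% myeloid UMIs, and 17.6% elsewhere. The NK-gated cells thus held 35.4% of the 14380 UMIs of the 10 genes, although they were 380 of 21686 cells.

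Other genes of the same pathways were read from 4 lists. Of 25 further NK receptors, 17 were tested between NK and T cells by edgeR, and 9 were higher and 2 lower in NK cells, beside 3.74% and 4.07% of all genes. The largest differences were those of the Klrb1 relatives Klrb1b (log2 5.06), Klrb1a (4.76) and Klrb1f (4.24), and of Klrg1 (-4.09), a receptor also found on regulatory T cells. Of 7 adaptors, 6 were tested, 4 were higher and 1 was lower. Sh2d1b1 (EAT-2), which serves SLAM family receptors, was higher by 2.62, Tyrobp, which encodes DAP12, the partner of Klra4 and Klra8, by 1.46, and Fcer1g, an adaptor of Ncr1, by 1.00. Cd247, which encodes the zeta chain of the T cell receptor complex, was lower by 1.44 on the log2 scale. Hcst, which encodes DAP10, the partner of NKG2D, was at 0.32 (SE 0.15, adjusted p = 0.28).

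Among 11 signal proteins, 2 were higher and 1 lower, beside the same shares of all genes. Lat2 (0.90) and Ptpn6 (0.62), the phosphatase that inhibitory receptors recruit, were higher in NK cells, and Lat (-2.63), a scaffold of T cell receptor signalling, was lower. Of 20 ligands, 9 were tested and Clec2i, a ligand of NKR-P1 receptors, was higher (1.88). Raet1d, a ligand of NKG2D, was called lower at a level near 0 UMIs. Against CD8 T cells, 5 of 16 further receptors were higher (Klrb1f, Klrb1a, Klrb1b, Klra3 and Cd244) and Slamf6 was lower, beside 1.78% and 1.25% of all genes. Of the adaptors only Sh2d1b1 (2.90) and Tyrobp (1.29) were higher there, Lat was lower (-2.01), and 0 of 7 ligands passed.

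Over all kept cells, 15 of 20, 18 of 20 and 13 of 18 further NK receptors with 20 UMIs were at least 1.5-fold above PBS on days 1, 3 and 7, beside 19.9%, 20.2% and 22.0% of all genes. Within the NK gate the numbers were 1 of 12, 4 of 13 and 4 of 12, beside 24.5%, 27.8% and 28.4% of all genes, so those of days 3 and 7 were near the general share. There, 2, 2 and 1 were lower, beside 9.81%, 11.4% and 16.1%. On day 7 the largest ratios among them were those of the Ly49 genes Klra1 (log2 2.06) and Klra3 (1.5) and of Cd244 (1.96). Of 5 ligands with 20 UMIs in the NK gates of PBS and day 7, 2 were higher and 1 lower. H2-T23, which encodes Qa-1, the ligand of CD94 heterodimers, stood 2.24 above PBS on the log2 scale (1.61 to 2.92) and H2-D1 1.39. Clec2d, a ligand of NKR-P1 receptors, had 2 UMIs against 18 in PBS (-3.26, -6.41 to -1.19).

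The genes whose level was most like that of the summed receptors over 21 gate and library sums were Samd3 and Ugcg (Pearson r of 0.96 each), Clec2i (0.95), Fasl (0.93) and Rpl9 (0.93), among 12487 candidates. For single members the closest genes were Fasl for Klrd1 (0.97), Samd3 for Klre1 (0.97) and Klra7 (0.95), Clec2i for Klrk1 (0.95), and Klrb1f for Ncr1 (0.94), Klra8 (0.92) and Klrb1c (0.90). Klrb1a was closest to Klra9 (0.93) and Klra4 (0.91), and Ugcg to Klri2 (0.91). The points share libraries and gates, so these values describe a pattern and carry no p-value.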

How the data were processed

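The deposited values are UMI counts per gene and barcode, whole numbers not normalized by the authors. Per the submitters' processing notes, Cell Ranger 3.1.0, mm10 and Seurat 3.1.2 were used, with no role given for Seurat. A barcode was kept if it showed 500 genes or more and no more than 10% of mitochondrial counts. Likely doublets, ranked by Scrublet score, were then dropped at a rate of 0.8% per 1000 barcodes (650, 643, 249 and 66 in PBS and on days 1, 3 and 7). This fixed rate was used because the automatic call gave no doublet in any library. The kept cells held 50793285, 66429789, 32128095 and 15401092 UMIs.

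Cells were gated by marker UMIs; lymphoid gates allowed at most 2% myeloid UMIs, and myeloid cells at most 1 UMI each of the NK and T sets. CD8 T cells needed 2 UMIs of Cd8a and Cd8b1, gamma-delta T cells 2 of Trdc and Foxp3 T cells 1 of Foxp3. Counts were summed per library and gate. CPM have exact Poisson intervals and ratios exact conditional binomial intervals; genes with 20 or more UMIs over both libraries entered the lists.

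Gates were compared with edgeR 4.0.16 (R 4.3.3; TMM, filterByExpr, library block, 12 and 20 sums), with DESeq2 1.42.0 as an alternative. The SE is the fitted log2 difference over the root of the test statistic. The gates of 1 library share its animals, day and depth, which is where the block comes from. The block takes out differences between whole libraries. The p-values therefore measure how much the differences between gates varied across 4 libraries under different treatments. On simulated counts, the test of NK against T recovered 20.0% of genes changed 2-fold and 87.0% changed 4-fold (8979 genes), and that of NK against CD8 T 14.4% and 92.6% (5670 genes). The simulation gave each gene a common mean over all gates, an assumed fixed dispersion and no library effect. These rates describe that setting and do not give the power of the tests on the real counts.

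All 10 members entered every comparison, but single values in the T and myeloid gates were printed for some members only. For most role lists, up to 4 genes with the largest changes were named, and likeness was the Pearson r of log2(CPM + 1). The members and lists were chosen with earlier results of these data known. The Ly6c2 and Plac8 split, the Fst, Tm4sf1, Hmga2 and Crabp1 barcodes and Isg15 were chosen after the values were seen. Symbols not matched were Raet1a, Raet1b, Raet1c and Clec2f. Sequences came from RefSeq (GRCm38.p6; 8 of 10 members matched).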

Additional observations from a re-analysis of the deposited data

Results flagged for a closer look

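On day 3 the ratio of Klrk1 to PBS had a different sign in NK-gated cells than in T- and myeloid-gated cells. The log2 ratio was -0.36 in NK-gated cells, 1.58 in T-gated cells and 4.36 in myeloid-gated cells. The NK value did not reach the 1.5-fold limit. On day 7 Klrk1 was above PBS in NK-gated cells too (870 CPM against 522), and on day 1 only slightly (575 CPM). Without 1 PBS barcode rich in Fst, Tm4sf1, Hmga2 and Crabp1, the PBS sum of the receptors was 2795 CPM in place of 2421. The day 1 position of Klrk1 is therefore uncertain. The difference between the gates was not tested, since each day is 1 library.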

How the results depend on the processing

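Each group is 1 library and the NK gate holds 73 to 126 cells, so treatment and library cannot be told apart, and depth limits the scarcer receptors to 19 to 73 UMIs (Klri2) per library. Of 2315 recomputed values, 2194 kept their direction and side of the threshold or stayed within their interval or 1.5 times. Among 1110 member tests between gates 26 calls were lost, 11 were gained and 0 reversed. The cause of the changes below was not tested.

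Over all cells, the day 1 log2 ratio of the sum was 1.59 with TMM and 1.55 with DESeq2 size factors (1.69 as reported). DESeq2 size factors shifted the median of all genes by -0.13 there, TMM and DESeq2 by -0.13 and -0.11 in NK cells on day 7, and TMM by 0.12 in T cells on day 3.

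In NK-gated cells the day 1 ratio of the sum (0.04) became -0.69 with the 2-UMI gate, 0.39 with a myeloid limit of 1% and -0.51 with no limit, and the day 1 median became -0.73, 0.45 and -0.62. On day 3 (-0.11) it was 0.051 with doublets kept, 0.053 with all barcodes, -0.36 and -0.25 with gates of 2 and 8 UMIs, and 0.11 and 0.10 with a 1% limit and no limit. On day 7 (1.05) the same settings gave 1.26, 1.26, 1.40, 0.83, 1.21 and 0.89. Without the barcodes of 5 or more UMIs of Fst, Tm4sf1, Hmga2 and Crabp1, a setting added after seeing the data, the 3 days gave -0.17, -0.31 and 0.84. Klrd1 on day 1 changed sign with the 2-UMI gate (-0.31) and with no limit (-0.16).

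The NK share in PBS was 0.765% with all barcodes and 1.35% with no myeloid limit. On day 1 it was 2.03% and 1.17% with gates of 2 and 8 UMIs, 1.14% with no T cell UMI allowed, 0.979% with a 1% limit and 2.87% with none. On day 3 it was 3.63% with 2 UMIs, 2.16% with no T cell UMI, 2.01% with a 1% limit and 3.20% with none, and on day 7 4.10% with none.

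With no myeloid limit the T cell sum was 0.92 on day 1 and 1.57 on day 7, and the T cell median on day 7 was 2.96 with doublets kept and 3.01 with all barcodes. With no limit on NK and T markers in myeloid cells, their sum was 2.04, 2.89 and 2.56 on days 1, 3 and 7, with a day 7 median of 2.65. Shares of cells with any receptor, thinned to 1000 UMIs, were 83.3% (NK), 19.9% (T) and 1.65% (myeloid), and not thinned 37.1% (T) and 7.73% (myeloid).

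Leaving out 1 library at a time gave 9 to 10 receptors higher in NK than T cells, 10 in each case against myeloid cells, 9 to 10 for T against myeloid, 9 for NK against CD8, 4 to 5 for CD8 against Foxp3 and 4 to 8 for gamma-delta against Foxp3 T cells (4 without day 3), with 0 lower throughout. Without the library block the counts were 9, 10, 9, 7, 5 and 6 in the same order. The replicate numbers of the groups are names only and pair nothing; the block is the library that gates share.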
